A study of Homo sapiens with 6 samples.

Results

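The Janus kinases JAK1, JAK2 and TYK2, the transcription factors STAT3, STAT5A, STAT5B and STAT6, and the inhibitors SOCS1 and SOCS3 were examined for binding of the AP-1 subunits FOSL2 and JUNB in their neighbourhood. These 9 of 19974 protein-coding genes on the autosomes and X were chosen by name. A binding region belonged to a gene if it reached into the gene body or the 50 kb on either side (hg38 positions, RefSeq gene spans). This gave 63 of 75703 FOSL2 regions and 38 of 40061 JUNB regions, each counted once although 7 and 5 of them lay near more than 1 of the 9 genes.

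Binding was mapped by chromatin immunoprecipitation and sequencing in HaCaT cells, an immortalised line of human skin keratinocytes, in a study of atopic dermatitis risk variants and their effect on enhancers. There were 3 libraries for FOSL2 and 3 for JUNB, made with a different antibody for each factor and prepared by ChIPmentation, in which a transposase inserts the sequencing adapters. The 3 libraries of a factor are represented by 1 list of regions. The values therefore carry no error between replicates, the depth of the libraries is unknown, no test was made, and levels are not compared between the factors. The labels name no cytokine treatment, so the regions describe cells as they were grown. All 7 keratinocyte marker genes examined (among them KRT5, KRT14 and TP63) had a region of both factors within 50 kb. So did all 4 T cell markers. Of 4 melanocyte markers 3 had a FOSL2 and 3 a JUNB region, and of 4 fibroblast markers 4 and 3. Of all coding genes, 92.9% had a FOSL2 and 83.9% a JUNB region in such a window. These counts therefore do not tell the cell types apart. Regions near a gene do not measure its expression.

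Cytokine receptors carry JAK kinases on their inner side. When a cytokine binds, the kinases phosphorylate the receptor and then STAT proteins, which pair, enter the nucleus and bind DNA. SOCS proteins are made in response and shut the receptor or kinase down. In keratinocytes, IL-4 and IL-13 act mainly through JAK1, TYK2, JAK2 and STAT6, and IL-22 and IL-6 family cytokines through STAT3. FOSL2 belongs to the FOS family and JUNB to the JUN family, and a FOS and a JUN protein bind DNA together as an AP-1 dimer.

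All 9 genes had a FOSL2 region in the window, and so did 92.9% of all coding genes. All 9 had a JUNB region as well, against 83.9% of coding genes, and 8 had a region shared by the factors, against 77.6%. The presence of a region in so wide a window therefore did not set these genes apart. What differed among them was the number, the strength and the place of the regions. SOCS3 had the most, with 15 FOSL2 and 11 JUNB regions, followed by STAT3 with 12 and 11. STAT5B had 10 and 8, STAT5A 7 and 5, STAT6 7 and 4, TYK2 7 and 4, JAK2 3 and 2, and SOCS1 2 and 1. JAK1 was the uneven one, with 12 FOSL2 regions and 1 JUNB region. A coding gene had a median of 5 FOSL2 regions (interquartile range 3 to 8) and 3 JUNB regions (1 to 5). These counts take no account of window size, which was largest for JAK1, at 335 kb. Per 100 kb the JAK1 window held 3.59 FOSL2 regions, more than in 52.7% of coding genes. It held 0.299 JUNB regions per 100 kb, more than in 16.7%.

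**Figure D1:**
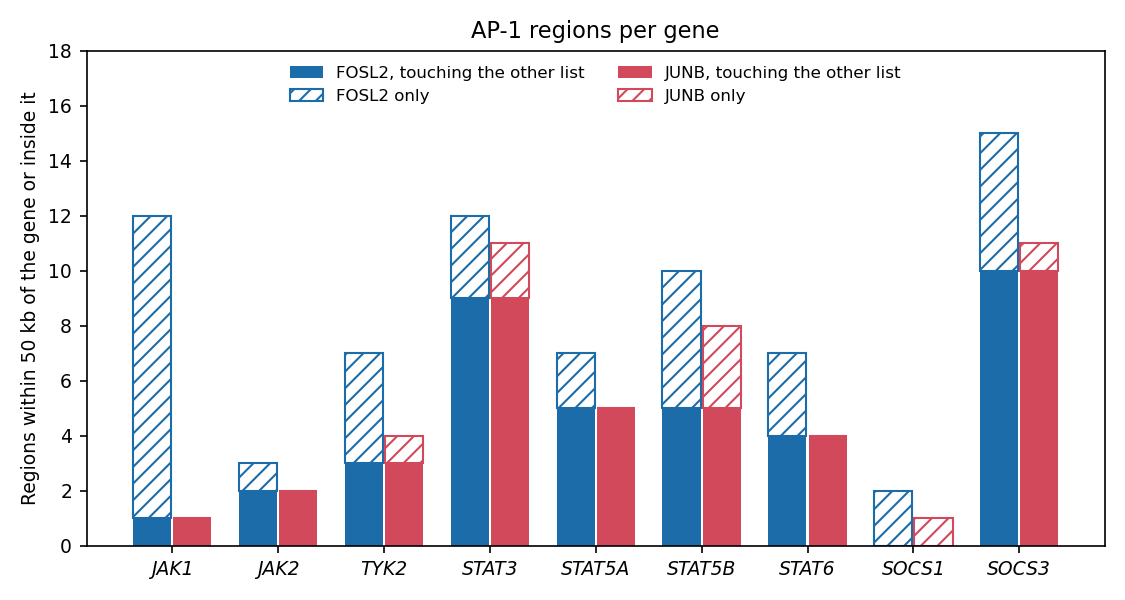
Number of FOSL2 (blue) and JUNB (red) regions inside each gene or within 50 kb of it (vertical axis), by gene (horizontal axis); filled bars touch a region of the other list and hatched bars do not. JAK1 combined 12 FOSL2 regions with 1 JUNB region, and SOCS1 had no shared region; the windows of STAT3, STAT5A and STAT5B overlap, so their bars share regions.

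Of the 63 FOSL2 regions 30 touched a JUNB region (47.6%, 95% Wilson interval 35.8 to 59.7), against 41.1% of the whole FOSL2 list. Of the 38 JUNB regions 30 touched a FOSL2 region (78.9%, 63.7 to 88.9), against 78.5% of the whole JUNB list. Both shares were near those of the whole lists, and the intervals cover counting error only. The 30 pairs had summits, the positions of highest signal, a median of 37 bp apart (range 2 to 141), and 19 pairs lay within 50 bp. Fold enrichment, the authors' linear ratio of signal over background for each region, had a median of 5.47 over the FOSL2 regions near the 9 genes (range 2.40 to 12.3) and 5.56 over the whole list. For JUNB the medians were 4.39 (range 2.40 to 10.7) and 4.79. Shared FOSL2 regions near the 9 genes had a median of 6.17, below the 7.855 of shared regions in the whole list. FOSL2-only regions had 5.27, above the 4.40 of the whole list. Shared JUNB regions had a median of 4.96 and JUNB-only regions 3.59, against 5.31 and 3.45 in the whole list. The highest of the 8 JUNB-only regions near the 9 genes had 4.45. Within the 30 pairs, stronger FOSL2 regions went with stronger JUNB regions (Pearson r = 0.87 for log2 values, Spearman rho = 0.89), as a description of pairs that share their libraries and in part their locus. No correlation was computed over all pairs of the lists, so this is not read as a trait of these genes.

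**Figure D2:**
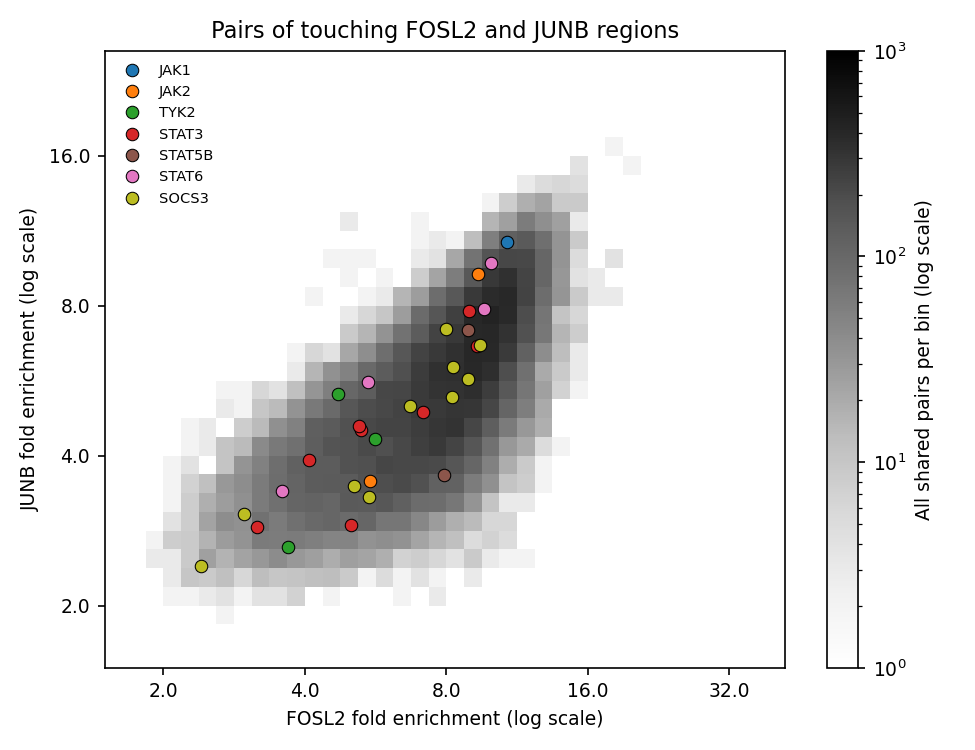
JUNB fold enrichment (vertical, log scale) against FOSL2 fold enrichment (horizontal, log scale) for the 30 pairs of touching regions near the 9 genes, coloured by the nearest of these genes, over all such pairs in the lists (grey, number of pairs per bin on a log scale). The pair inside JAK1 lies at the upper end at 10.8 and 10.7, the weakest pair, upstream of SOCS3, at 2.40 and 2.40, and SOCS1 and STAT5A have no pair of their own.

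Position relative to the genes is described for the nearest of the 9 genes to each summit. Inside a gene body, 7 of the 9 had a FOSL2 region (59.4% of coding genes) and 5 a JUNB region (49.4%); both inhibitor genes, which are short, had none of either. Within 1 kb of an end of the gene, FOSL2 summits were found at JAK2, STAT3, STAT6 and SOCS3 (4 of 9, against 27% of coding genes) and JUNB summits at JAK2, STAT6 and SOCS3 (3 of 9, against 27.1%). The 3 last genes had shared summits there, against 14.8% of coding genes. With 9 genes, these counts are too few to read a difference from the background. Of the 63 FOSL2 summits 5 lay at an end, 21 farther inside, 22 upstream and 15 downstream. Of the 38 JUNB summits 4 lay at an end, 7 inside, 19 upstream and 8 downstream. Shared FOSL2 regions made up 15 of the 22 upstream summits, most of them upstream of STAT3 or SOCS3. They made up 6 of the 21 inside, where 15 were FOSL2-only, 9 of these in JAK1. Shares by position were not taken over all regions, so these counts describe a few loci and not position as such. Many of the regions lay in or beside other genes: 18 FOSL2 and 14 JUNB summits were inside another coding gene, 22 and 15 between coding genes, and 23 and 9 inside 1 of the 9.

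**Figure D3:**
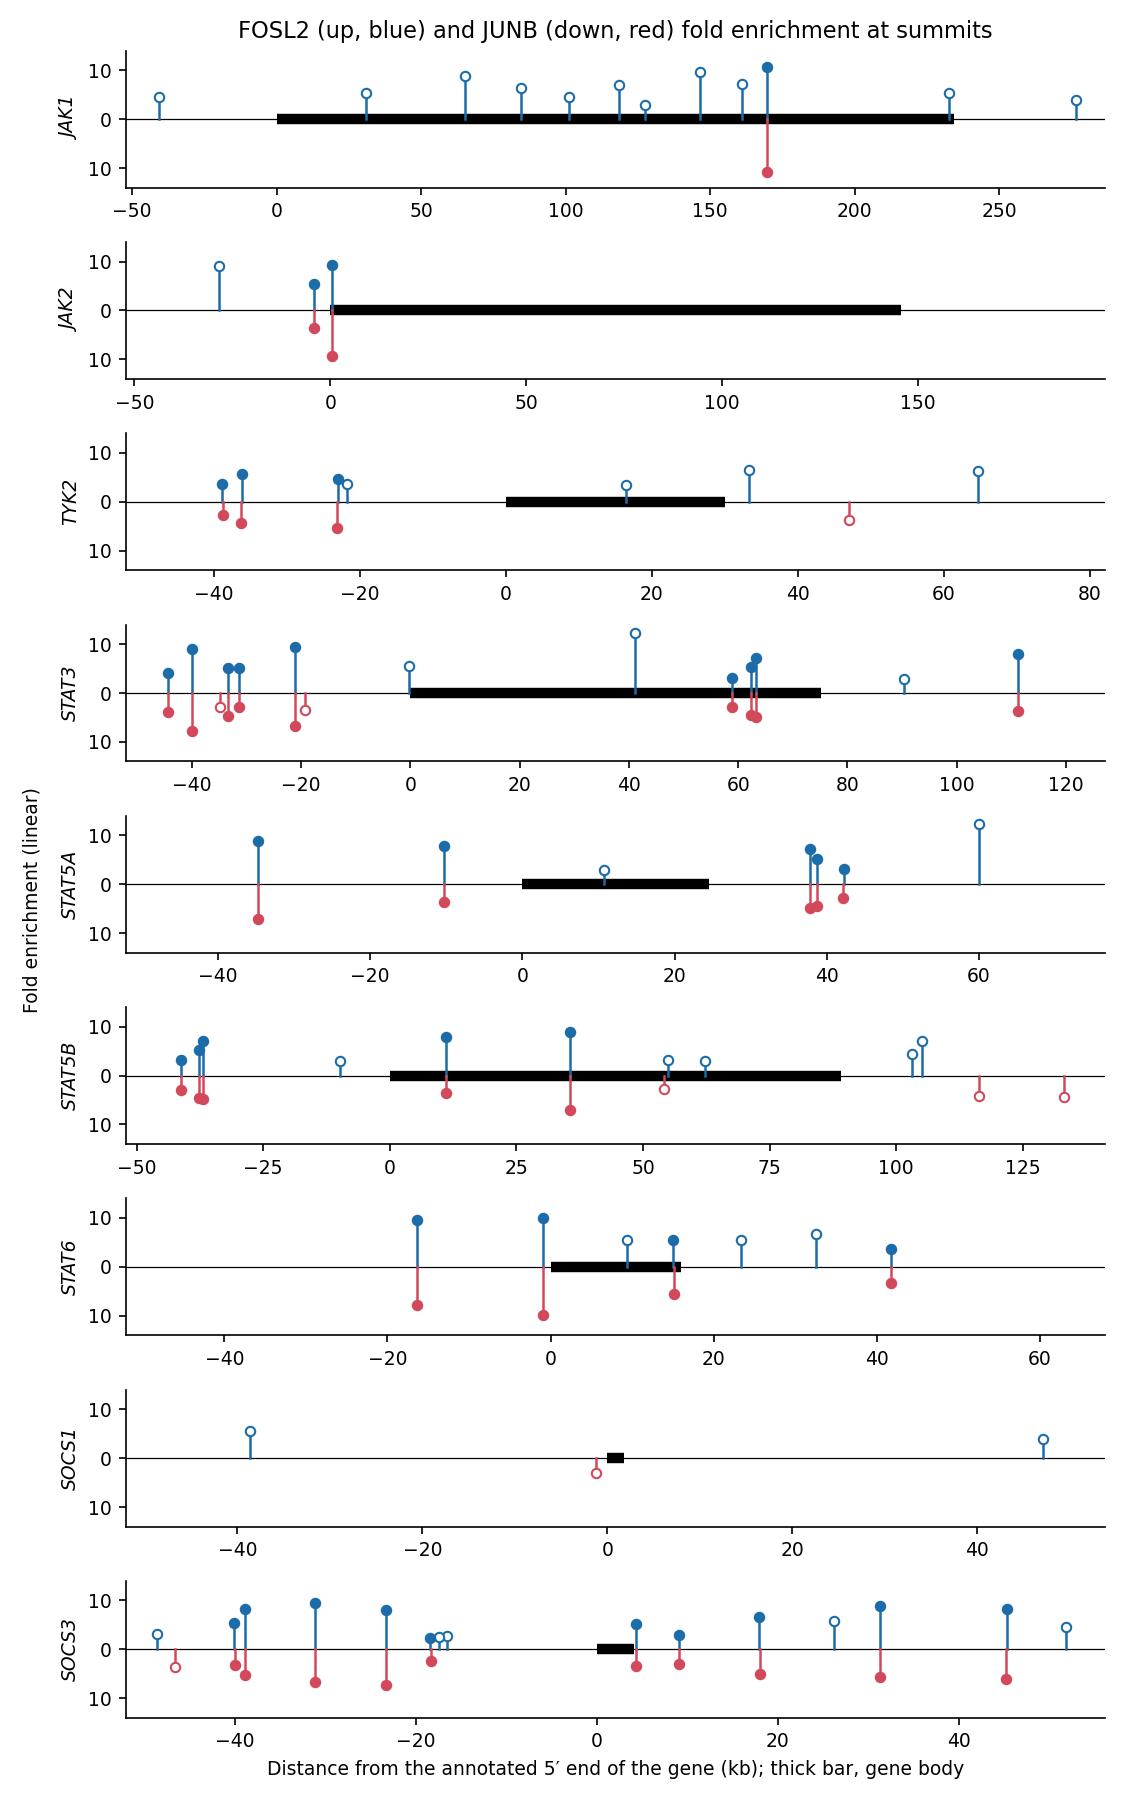
Each panel is 1 gene drawn 5′ to 3′, with the distance from its annotated 5′ end in kb on the horizontal axis (the scale differs between panels), the gene body as a thick bar, and the fold enrichment of each FOSL2 summit upward (blue) and JUNB summit downward (red); filled points are shared regions and open points are not. FOSL2-only summits run along the body of JAK1, the JAK2 body is empty beyond its start, and summits flank SOCS3 on both sides.

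JAK1, the kinase common to most of the cytokine receptors of keratinocytes, spans 235 kb on chromosome 1 (64833229 to 65067746, minus strand). Its 12 FOSL2 regions had fold enrichments from 3.00 to 10.8. Only the strongest touched JUNB: the FOSL2 region at chr1:64897799-64899011 reached 10.8 and the JUNB region at chr1:64897807-64898869 reached 10.7, with summits 2 bp apart. This was the strongest JUNB region near any of the 9 genes, and 1.39% of the JUNB list reached its fold enrichment. The pair lay inside the gene, 65.0 kb from its 3′ end, and the FOSL2 summit was 68339 bp from the nearest JAK1 start site in the RefSeq promoter table. The other FOSL2 regions in the body included strong ones, at 9.69 and 8.85, whose nearest JUNB summits were 22.9 and 104 kb away. The region of 8.85 overlapped one end of LINC01359, a long noncoding RNA gene that lies inside the JAK1 span. Among the 1705 coding genes with at least 12 FOSL2 regions in their window, 8 (0.469%) had at most 1 JUNB region, and JAK1 was 1 of these. This limit was set from the JAK1 counts after they were seen, so the share describes where JAK1 lies and tests nothing.

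The promoter table lists 3 start sites for JAK1, and the nearest summit to the outermost, at the end of the span, was 30.8 kb away. A FOSL2-only region, chr1:64965984-64966918, covered an internal start site, 64966549, and ended just short of the other, 64966936. Its fold enrichment was 4.53, which 64.1% of the FOSL2 list reached, and its summit lay 97 bp from the first and 484 bp from the second. The nearest JUNB summit was 68.2 kb from that FOSL2 summit.

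JAK2, which signals for growth hormone, erythropoietin and interferon-γ receptors among others, showed the opposite arrangement. The gene spans 146 kb on chromosome 9 (4984390 to 5129948, plus strand) and had its only region inside the body at its start. There the FOSL2 region chr9:4984222-4985303 had a fold enrichment of 9.34 and the JUNB region chr9:4984446-4985314 one of 9.27, with summits 386 and 378 bp past the first start site and 8 bp apart. For JUNB, 5.05% of the list reached this value, and for FOSL2 15.2%. A weaker pair lay 4.12 kb upstream at 5.496 (FOSL2) and 3.55 (JUNB), and a FOSL2-only region of 9.11 lay 28.4 kb upstream. No region of either factor was listed in the rest of the body or within 50 kb beyond its 3′ end, a stretch that also holds most of INSL6. Regions per 100 kb of window were 1.22 for FOSL2 and 0.814 for JUNB, below the medians of 3.40 and 1.90 over coding genes.

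The 250 bases before the first JAK2 start site are shown because the FOSL2 region of the strongest pair at a listed start site of the 9 genes begins in them. The sequence is from RefSeq (GRCh38.p14, chr9:4984140-4984389, plus strand), and capitals mark the 168 bases inside the FOSL2 region.
JAK2: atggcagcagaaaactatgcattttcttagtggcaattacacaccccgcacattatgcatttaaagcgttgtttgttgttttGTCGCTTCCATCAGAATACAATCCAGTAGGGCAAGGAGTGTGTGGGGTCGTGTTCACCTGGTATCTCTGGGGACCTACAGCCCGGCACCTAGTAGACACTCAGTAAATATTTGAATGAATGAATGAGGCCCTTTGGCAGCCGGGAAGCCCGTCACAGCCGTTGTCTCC
The JUNB region begins just after the printed stretch, and both summits lie beyond it, in sequence not used here.

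TYK2, a kinase of the type I interferon, IL-12 family and IL-13 receptors, lies in a gene-dense part of chromosome 19 (10350533 to 10380572, minus strand). The gene itself held no JUNB region and a single weak FOSL2 region of 3.36, a value that 84.2% of the list reached. Its summit, 16.5 kb from the start site, was the nearest to that site. The highest FOSL2 value of its window, 6.59, belonged to a FOSL2-only region 3.31 kb past its 3′ end. The other regions lay mostly at the start sites of neighbours. At CDC37, which encodes a cochaperone of kinases, the FOSL2 summit lay 4 bp and the JUNB summit 133 bp from the start site, with fold enrichments of 4.71 and 5.33, the latter the highest JUNB value of the TYK2 window. At PDE4A, which encodes a cyclic AMP phosphodiesterase, the summits lay 9 and 59 bp from the start site, with 5.65 and 4.33. At FDX2, which encodes a mitochondrial ferredoxin, a FOSL2-only summit of 6.23 lay 54 bp from the start site. A JUNB-only region of 3.73 lay 1181 bp from the start site of ICAM3.

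The windows of the promoter table (250 bases before to 50 after each start site) were searched on both strands for the AP-1 motif TGANTCA, the cyclic AMP response element TGACGTCA, which AP-1 and ATF proteins can also bind, and the STAT motif TTCNNNGAA. None of these was present in any of the 17 windows of the 9 genes. Over 22132 windows of coding genes, 6.15% held TGANTCA, 2.26% TGACGTCA and 6.79% TTCNNNGAA. In windows covered by regions of both factors the shares were 15.1, 6.32 and 6.61%, and in windows covered by neither 4.73, 1.32 and 6.94%. Windows covered by FOSL2 alone held them in 10.4, 4.18 and 6.90%. Windows covered by JUNB alone held them in 2.81, 2.81 and 5.85%, so that the AP-1 motif was less frequent there than in windows covered by neither. A missing match says only that these letters are not in the window. Regions near the 9 genes also covered start windows of 9 other coding genes, which were looked at after the regions were seen. Of these, HCRT, RAB5C, NEMP1, NAB2, LRP1 and PGS1 held none of the motifs, and the 3 with a match were all neighbours of TYK2. The matches are printed here in 30 bases each with the match in capitals (RefSeq, GRCh38.p14, in the direction of each gene). Each lies inside a FOSL2 region of the TYK2 window, whose other regions lie elsewhere. Only start windows covered by a region were looked at, so their closeness to a summit shows nothing further.
CDC37: tactagggatgTGACGTCAcacagggcggg
PDE4A: cgtcagtccgcTGACGTCAcgccccaggag
FDX2: tgctcagtcggTGAGTCAcgtgatgcatgt
The stretches are chr19:10403590-10403619 (minus strand), chr19:10416759-10416788 (plus strand) and chr19:10315998-10316027 (minus strand). The centre of the match lay 66 bp from the FOSL2 and 70 bp from the JUNB summit at CDC37, 10 and 58 bp at PDE4A, and 52 bp from the FOSL2 summit at FDX2.

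STAT3, STAT5B and STAT5A lie side by side on chromosome 17, with 1.38 kb between STAT5A and STAT3 and an overlap of the annotated STAT5A and STAT5B spans, so a region there can fall in 3 windows. STAT3 mediates IL-6 family and IL-22 signals and spans 42313324 to 42388442 on the minus strand. Its strongest region was FOSL2-only: chr17:42346970-42348083, inside the gene 41.0 kb from the 5′ end, with a fold enrichment of 12.3. This was the highest FOSL2 value near any of the 9 genes, and 1.75% of FOSL2 regions reached it. Of the 1324 FOSL2 regions at or above this value, 213 (16.1%) were FOSL2-only, and the nearest JUNB summit to the one in STAT3 was 17.9 kb away. As with JAK1, this limit came from the value itself. The region also falls in the window of STAT5A.

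At the STAT3 start site a FOSL2-only region, chr17:42388266-42389345, had a fold enrichment of 5.45 with its summit 250 bp upstream, and the nearest JUNB summit was 19.3 kb from the start site. The 250 bases before the start site (RefSeq, GRCh38.p14, chr17:42388443-42388692, minus strand) all lie inside this region and are therefore all in capitals, and the FOSL2 summit is the first base printed.
STAT3: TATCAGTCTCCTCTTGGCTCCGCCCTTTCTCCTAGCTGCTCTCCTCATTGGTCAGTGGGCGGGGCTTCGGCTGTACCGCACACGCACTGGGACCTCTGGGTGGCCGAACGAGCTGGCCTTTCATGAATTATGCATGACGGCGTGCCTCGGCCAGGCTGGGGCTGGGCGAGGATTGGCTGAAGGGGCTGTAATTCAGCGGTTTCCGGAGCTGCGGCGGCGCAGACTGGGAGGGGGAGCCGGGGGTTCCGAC

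Shared regions with STAT3 as the nearest of the 9 genes lay in the 3′ part of the gene and upstream. Inside the gene, 3 pairs lay 11.9 to 16.3 kb from the 3′ end, with FOSL2 values of 7.12, 5.27 and 3.16 and JUNB values of 4.89, 4.51 and 2.87. These 3 pairs also fall in the windows of STAT5A and STAT5B. Upstream, 5 pairs lay 21.2 to 44.4 kb from the 5′ end, inside or beyond CAVIN1, which encodes a caveolar coat protein. The strongest for FOSL2 had 9.32 with a JUNB value of 6.65, inside CAVIN1. The strongest for JUNB had 7.82 with a FOSL2 value of 8.95, at chr17:42427729-42428997 for FOSL2 and chr17:42428010-42428927 for JUNB, 40.0 kb upstream. JUNB-only regions near STAT3 were weak, at 3.53 and 2.76. The JUNB density of the STAT3 window, 6.28 regions per 100 kb, exceeded that of 95.1% of coding genes, and the FOSL2 density of 6.85 that of 88.5%.

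STAT5A and STAT5B are close paralogs that respond to growth hormone, prolactin and many interleukins. Of the 9 genes, STAT5B was the nearest to 6 FOSL2 and 5 JUNB regions, and STAT5A to 1 and 0. The STAT5A window also takes in regions inside STAT3 and STAT5B. STAT5A (42287439 to 42311943, plus strand) held only a FOSL2-only region of 2.88 in its body, a value that 92.5% of the list reached, and the nearest summit to any of its listed start sites was 9629 bp away. STAT5B (42199177 to 42288370, minus strand) held 2 pairs. The stronger, 8.89 for FOSL2 and 7.14 for JUNB, lay 53.5 kb from its 3′ end, at chr17:42252163-42253287 and chr17:42252404-42253188. The other had 7.89 for FOSL2 and 3.65 for JUNB. It lay inside the annotated span, and its summits were 780 and 796 bp upstream of the start site listed for STAT5B in the promoter table. This pair also falls in the window of STAT3, past the STAT3 3′ end. It is the nearest pair upstream of STAT5A, with the FOSL2 summit 10268 bp from the STAT5A 5′ end. Past the 3′ end of STAT5B the regions were single, with FOSL2-only values of 7.02 and 4.48 and JUNB-only values of 4.45 and 4.25. Of these, the FOSL2 region of 4.48 had its summit 127 bp from the start site of HCRT, which encodes orexin, and the JUNB region of 4.45 lay 142 bp from that of RAB5C, an endosomal GTPase gene.

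STAT6, the main mediator of IL-4 and IL-13 signals, spans 16 kb on chromosome 12 (57095408 to 57111362, minus strand) and had a shared pair at both ends. The pair beyond the 5′ end was the stronger: the FOSL2 region chr12:57111326-57112829 had a fold enrichment of 9.98 and the JUNB region chr12:57111307-57112665 one of 9.75. Their summits lay 884 and 866 bp upstream of the span, 18 bp apart, and 3.36% of the JUNB list and 10.8% of the FOSL2 list reached these values. The start site in the promoter table lies farther inside, 1957 and 1939 bp from these summits, and an uncharacterised noncoding RNA gene, LOC124902946, spans the pair. The pair inside the 3′ end had 5.44 (FOSL2) and 5.63 (JUNB), 900 and 816 bp from it. NAB2, a corepressor gene, ends in the last bases of STAT6, so the pair lay near the ends of both genes. A further strong pair, 9.63 and 7.87, lay 16.4 kb upstream of STAT6 and 727 and 737 bp from the start site of LRP1, a lipoprotein receptor gene. All 4 JUNB regions of the STAT6 window were shared, as were 78.5% of the whole JUNB list. Of its 7 FOSL2 regions 3 were single (58.9% of the whole FOSL2 list), at 5.40, 5.57 and 6.67. The last had its summit 31 bp from the start site of NEMP1, a nuclear envelope protein gene.

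The 2 inhibitor genes had the fewest and the most regions. SOCS1, which blocks JAK kinase activity directly, is 1.79 kb long (chromosome 16, 11254417 to 11256204, minus strand). Its window held a JUNB-only region of 3.01, a value that 88.9% of the list reached, 1252 bp upstream of the start site, and no other JUNB region. The FOSL2 regions were 38.6 kb upstream (5.62) and 45.3 kb past the 3′ end (3.85), and neither touched JUNB. SOCS1 was the only 1 of the 9 genes with no shared region.

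SOCS3, the feedback inhibitor of STAT3 signals from IL-6 family receptors, is 4.15 kb long (chromosome 17, 78356778 to 78360925, minus strand). Its window held 14.4 FOSL2 and 10.6 JUNB regions per 100 kb, more than in 99.9% and 99.8% of coding genes, and 15 and 45 other coding genes reached these densities. By number of regions, with no account of window size, SOCS3 ranked lower: 4.34% of coding genes had as many FOSL2 regions or more and 3.03% as many JUNB regions or more. None of these regions lay in the gene or at its start. The nearest pair lay just past the 3′ end, with summits 216 and 164 bp from it and fold enrichments of 5.10 (FOSL2) and 3.48 (JUNB), 4.36 and 4.31 kb from the 5′ end. No region of either factor was listed from there to a FOSL2-only region of 2.76, 16.6 kb upstream of the start. The stretch includes SOCS3-DT, a noncoding RNA gene that overlaps the SOCS3 start.

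Shared pairs flanked SOCS3 on both sides. Past the 3′ end, where no coding gene lies closer, pairs lay 4.92, 13.8, 27.2 and 41.1 kb away, with FOSL2 values of 2.96, 6.70, 8.89 and 8.27 and JUNB values of 3.06, 5.03, 5.69 and 6.01. Upstream, 5 pairs lay inside PGS1, which encodes a cardiolipin synthesis enzyme, 18.4 to 40.1 kb from the SOCS3 start. The strongest for FOSL2 was at chr17:78391266-78392610 with 9.45, and its JUNB partner had 6.68. The strongest for JUNB was at chr17:78383850-78384436 with 7.19, and its FOSL2 partner had 7.998. The remaining pairs in PGS1 had FOSL2 values of 8.23, 5.47 and 2.40 and JUNB values of 5.26, 3.30 and 2.40. Shared regions made up 41.1% of the whole FOSL2 list and 78.5% of the whole JUNB list. Near SOCS3 they made up 10 of the 15 FOSL2 and 10 of the 11 JUNB regions. Which of the neighbouring genes these regions act on was not measured.

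**Figure D4:**
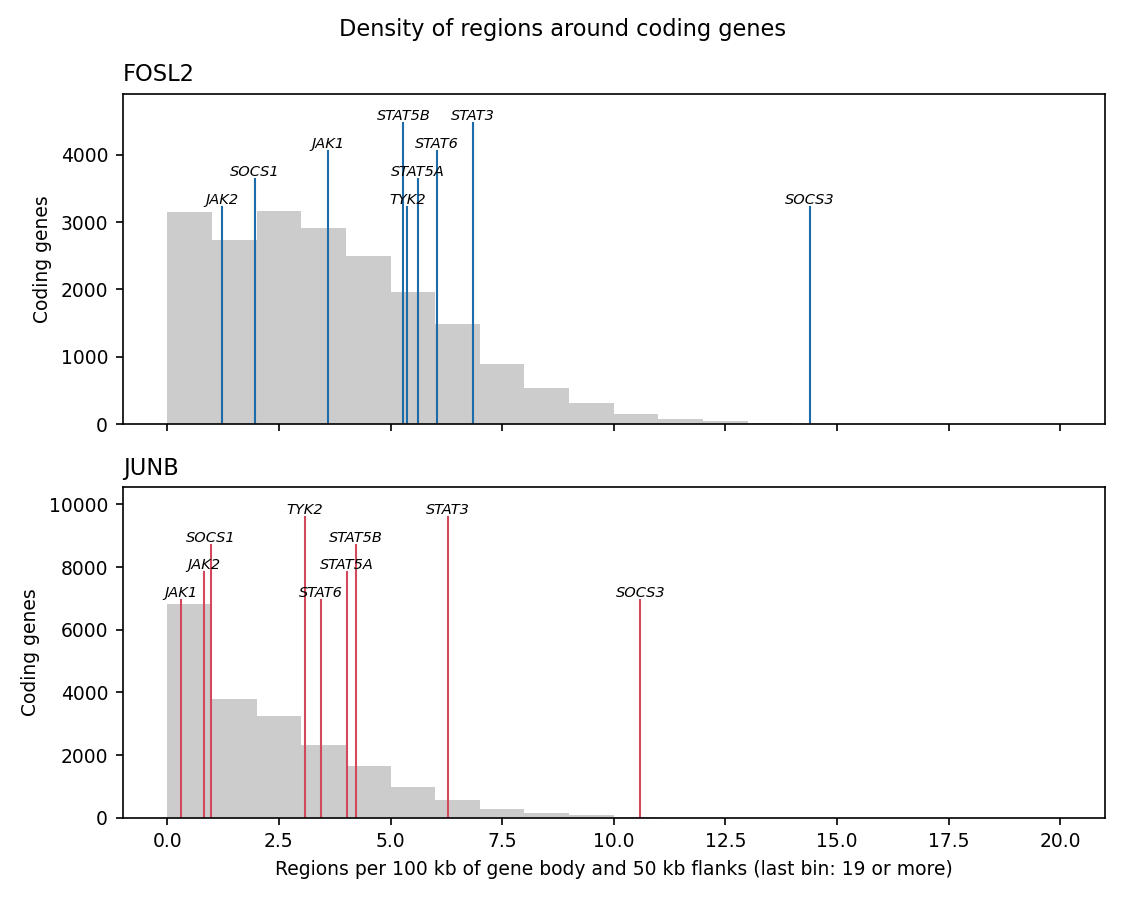
Number of coding genes (vertical) by regions per 100 kb of gene body and 50 kb flanks (horizontal) for FOSL2 (upper) and JUNB (lower), with the 9 genes as coloured lines. SOCS3 lies at 14.4 and 10.6, far right of the others, JAK2 and SOCS1 lie at the left in both, and JAK1 lies at 3.59 for FOSL2 and 0.299 for JUNB.

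The other genes of the pathway were grouped by role and described over the same windows. Of the other 10 JAK, STAT and SOCS family genes all had regions of both factors and a shared region within 50 kb. The highest JUNB values of shared regions were 10.8 at SOCS6, 10.5 at SOCS5 and 8.79 at CISH. Of 20 receptor genes 19 had a FOSL2 region, 18 a JUNB region and 18 a shared region, against 92.9, 83.9 and 77.6% of all coding genes, which is no result about the receptors. The highest shared JUNB values were 11.2 at IL13RA1, a subunit of the IL-13 receptor, 9.36 at IFNGR2, a subunit of the interferon-γ receptor, and 8.89 at IL4R, the IL-4 receptor subunit. CRLF2, a subunit of the TSLP receptor, had no listed region of either factor. It lies at 1190490 to 1212649 on chromosome X. The lists do not show whether reads could be placed uniquely there, so absence of binding cannot be read from this. IL6ST, the common subunit of IL-6 family receptors, had 8 FOSL2 regions up to 8.61 and no JUNB region, and was named after its values were seen.

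All 12 phosphatases, adaptors and other modulators had regions of both factors and a shared region, with the highest shared JUNB values at PTPN2 (9.26) and PTPRC (9.26), both tyrosine phosphatase genes, and at CBL (8.86), a ubiquitin ligase gene. Of 10 genes known to respond to STAT3 or STAT6 signals, all had regions of both factors and 8 a shared region. MCL1, a survival factor gene, had a shared JUNB region of 9.93, FLG, the filaggrin gene, had 1 of 9.04 in its window, and BCL3, an IκB family gene, 1 of 8.68. HIF1A and JUNB itself had regions of both factors but none shared. Taking these 52 genes as 1 group, 51 had a FOSL2, 50 a JUNB and 48 a shared region, again against 92.9, 83.9 and 77.6% of all coding genes, with medians of 7 and 5 regions per gene. The medians over the 9 genes were 7 and 4, and those over all coding genes 5 and 3. Windows of genes that lie close together share regions, and gene length was not accounted for.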

How the data were processed

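FOSL2 and JUNB binding was measured in HaCaT cells, with 3 libraries per factor and 1 deposited list of narrow peaks for each factor. Per the submitters' processing notes the tools were Bowtie2, SAMtools 1.8, Picard 1.89, MACS2 and deepTools with hg38. Both lists carry the label conservative overlap. The control for calling and the rule of combination were not given in the sources used here. The deposited fold enrichment is a linear ratio of signal over background by the authors, the deposited −log10 q was used as written for an alternative minimum of 10, and the deposited summit offset gave each summit.

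The FOSL2 list had 75704 regions, 1 of them on another chromosome and not used, and the JUNB list 40061. Start sites and sequences are from RefSeq tables of GRCh38.p14, whose chromosome coordinates are those of hg38; all 9 genes and 52 pathway genes matched by symbol. Shared means at least 1 bp in common. Counting and overlaps were tested on simulated data (Python 3.11.15, pandas 2.3.3, scipy 1.17.1). The genes and gene lists were chosen with earlier results of these data known. All members were named with their end, strongest and strongest shared regions, and from each pathway list the 3 genes with the highest shared JUNB value and up to 3 without regions. Other genes were named after their values were seen.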

Additional observations from a re-analysis of the deposited data

How the results depend on the processing

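Of 48 recomputed values 38 stayed close to those reported (counts within 1.5 times, shares and medians within the 95% interval of the reported value) and 10 did not. Some could not have moved. All 9 genes had a region of each factor within 50 kb, so all 9 had to have one within 100 kb. The tally counts these too. With a distance of 10 kb, 30 FOSL2 and 14 JUNB regions were left. With the 10000 regions of highest fold enrichment in each list, 5 FOSL2 and 9 JUNB regions were left. Then 4 genes had a FOSL2 region, 7 a JUNB region and 2 a shared region. This cut keeps a larger part of the shorter JUNB list, so the 2 factors cannot be set against each other here. Shares over all coding genes were not taken under this cut. With −log10 q of at least 10, 24 JUNB regions were left and their median fold enrichment was 5.48. Counting only regions with a summit nearer to 1 of the 9 than to any other coding gene, an alternative chosen after seeing the data, left 35 FOSL2 and 17 JUNB regions. Another added alternative used listed start sites as ends. With it 4 genes had a FOSL2 summit within 1 kb (JAK1, JAK2, STAT3 and STAT5B) and 2 a JUNB summit (JAK2 and STAT5B). STAT6 and SOCS3 therefore had summits within 1 kb of an end of their span but not of a listed start site. Shares over all coding genes were not taken for listed start sites, so no difference from the background can be read. No paired analysis was possible because each factor's list stands for its 3 libraries together, and for the same reason no library could be left out. Whether regions called single had a weaker partner that was not listed could not be seen from the lists.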
